A study of Homo sapiens with 6 samples.

Results

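The genes described here are the SR proteins, the heterogeneous nuclear ribonucleoproteins (hnRNPs) and 7 related splicing factors, as measured in DB, a human cell line of diffuse large B-cell lymphoma. They were chosen by symbol from the deposited table: SRSF followed by digits, any symbol that starts with HNRNP, and MATR3, TRA2A, TRA2B, PTBP1, PTBP2, PTBP3 and SRRM2. Pseudogene records, antisense or divergent transcripts and a readthrough were dropped. This gave 42 of the 29571 gene records: 12 SR proteins, 22 hnRNP genes and 8 records of the other factors, in which MATR3 has 2 records. Of the 42, 40 passed a filter of at least 1 FPKM (fragments per kilobase, scaled to the library's size) in at least 3 of the 6 columns.

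SR proteins bind exonic enhancers through RNA recognition motifs, and their arginine- and serine-rich tails, once phosphorylated, recruit the spliceosome to nearby splice sites. The hnRNPs coat nascent transcripts and often act against SR proteins by silencing splice sites, and several also shuttle to the cytoplasm and affect export, stability or translation. Many genes of both groups limit their own output by splicing in a poison exon, which sends the transcript to nonsense-mediated decay. In lymphocytes the alternative exons of CD45 are a well-known target, with HNRNPLL and HNRNPL among their regulators.

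The cells of the first group were labelled DB_ZHX2 and those of the second DB_ZHX2_Mut4 (ZHX2 cells and Mut4 cells below), with 3 libraries labelled in each. ZHX2, which has zinc fingers and homeoboxes, acts in transcription and is known to contact the factor NF-Y. The labels do not say how either form was introduced, what Mut4 alters, or whether the cells are 1 clone or a pool, and no untreated group was analysed here. According to the design text, the comparison served to look for enriched pathways.

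Before the results, the columns of each group were compared. All 23808 genes above 0 in Mut4 cells had 1.05 and 1.21 times the value of replicate 1 in replicates 2 and 3. The ZHX2 columns likewise had 1.33 and 0.897 times replicate 1, at 23368 of 23370 genes (relative tolerance 1e-06). So n = 1 for each group, and the differences below come without error between replicates, test or p-value. Values in 3 columns are printed because the table lists them, and their spread is that of the constants. Depth is unknown, since the table holds no counts. The mean level of ZHX2 itself was 14.9 FPKM (Mut4) and 18.0 FPKM (ZHX2). All 6 B cell markers looked up passed the filter. CD79B had the highest difference (0.33, 249.2 FPKM in Mut4 against 194.9 FPKM in ZHX2 cells) and CD79A the lowest (−0.15, 143.1 against 156.7 FPKM), on the scale defined below. None of the 5 T and NK cell markers or the 5 myeloid markers in the table passed, their summed levels were 0.928 and 1.06 FPKM in Mut4 cells and 1.08 and 1.32 FPKM in ZHX2 cells, and CD3G, GNLY and S100A8 were listed at 0. In such bulk RNA, fewer cells of a type and less RNA per cell cannot be told apart.

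Differences below are log2(FPKM + 1) of Mut4 cells minus that of ZHX2 cells, using the mean of the 3 columns, less the median of the same over all 12643 genes that passed the filter. That median was 0.02. A fold is 2 to the power of this difference and so is relative to the median gene. The central 95% of all genes lay between −0.61 and 0.56, and the central 50% between −0.16 and 0.16.

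Across these splicing factors the differences were small and mostly on one side. Of the 40 members that passed the filter, 35 were above the median gene in Mut4 cells, where 50% of all genes are by construction. Their median difference was 0.21, against 0 for all genes. Among the 25% of genes with the highest differences were 25 members, and among the 25% with the lowest was 1, the MATR3 record ENSG00000015479. Those 25% limits were chosen after the values were seen. At 1.5-fold, 0 members were higher (2.27% of all genes) and 1 was lower (2.82%), again that MATR3 record, which makes 1 in either direction (5.09%). In summed level, the 42 records made up 0.757% of all listed FPKM in Mut4 cells and 0.651% in ZHX2 cells.

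**Figure D1:**
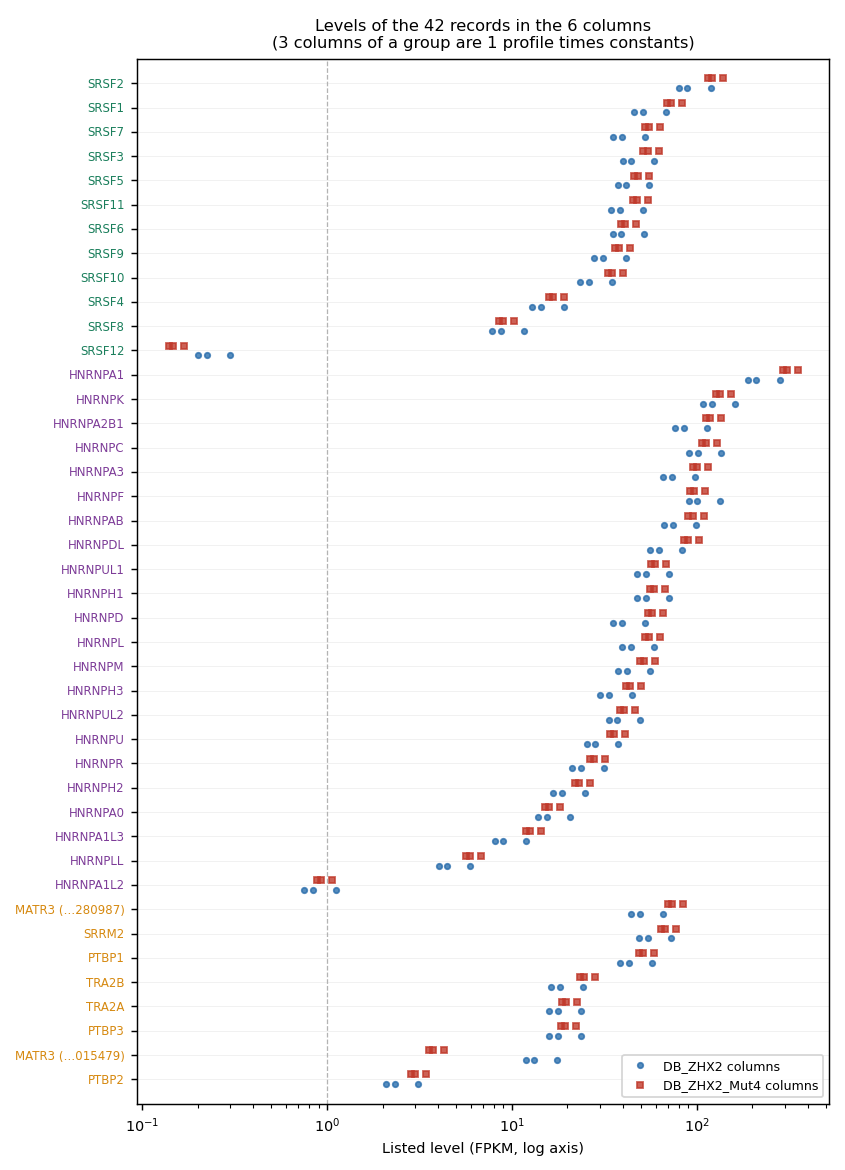
Listed level (FPKM, log axis) of each of the 42 records in the 3 DB_ZHX2_Mut4 columns (red squares) and the 3 DB_ZHX2 columns (blue circles), with names coloured by class and the 1 FPKM filter as a dashed line. The columns of most members overlap between the groups, HNRNPA1 is highest, and SRSF12 lies below 1 FPKM in every column.

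The SR proteins had a median difference of 0.20 over the 11 that passed the filter, with 9 above the median gene and 7 in the top 25%. SRSF1, the founding member of the family and a known oncoprotein, stood at 68.8, 72.4 and 83.1 FPKM in Mut4 replicates 1 to 3 and at 51.4, 68.5 and 46.1 FPKM in ZHX2 replicates 1 to 3. Its Mut4 columns all lay above its ZHX2 columns, and its difference of 0.41 (1.32-fold) was the highest of the class. SRSF7, which carries a zinc knuckle beside its RNA recognition motif, was at 52.4, 55.2 and 63.3 FPKM in Mut4 and 39.4, 52.5 and 35.3 FPKM in ZHX2 columns (difference 0.40). Here the lowest Mut4 column was just below the highest ZHX2 column. SRSF2, a marker of nuclear speckles and recurrently mutated in myeloid neoplasms, was the most abundant SR gene, at 115.5, 121.6 and 139.5 FPKM against 89.2, 118.9 and 80.0 FPKM (difference 0.36). Its columns overlapped in the same way.

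The SR genes nearest to or below the median gene were SRSF8, SRSF6 and SRSF5. SRSF8, a retrotransposed relative of SRSF2, had 8.49, 8.94 and 10.3 FPKM in Mut4 and 8.73, 11.6 and 7.84 FPKM in ZHX2 columns, a difference of −0.05. SRSF6 had 39.1, 41.1 and 47.2 FPKM against 39.1, 52.1 and 35.1 FPKM, a difference of −0.01 that was 0.01 without centring or without a filter and 0.02 without ZHX2 replicate 2. SRSF5 had 45.7, 48.1 and 55.2 FPKM against 41.6, 55.5 and 37.4 FPKM (0.12). In all of these the columns of the groups overlapped. SRSF4, SRSF5 and SRSF6 had differences from −0.01 to 0.13, and 0 of these 3 lay in the top 25%.

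Between these ends lay SRSF10 (0.32), which represses splicing in its dephosphorylated form, SRSF11 (0.23), SRSF3 (0.20), the smallest SR protein, SRSF9 (0.20) and SRSF4 (0.13). SRSF12, a relative of SRSF10, did not pass the filter, with 0.139, 0.147 and 0.168 FPKM in Mut4 and 0.224, 0.298 and 0.201 FPKM in ZHX2 columns. These columns did not overlap either, but no difference is read from levels that low. The SR genes together held 0.174% of listed FPKM in Mut4 cells and 0.147% in ZHX2 cells.

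**Figure D2:**
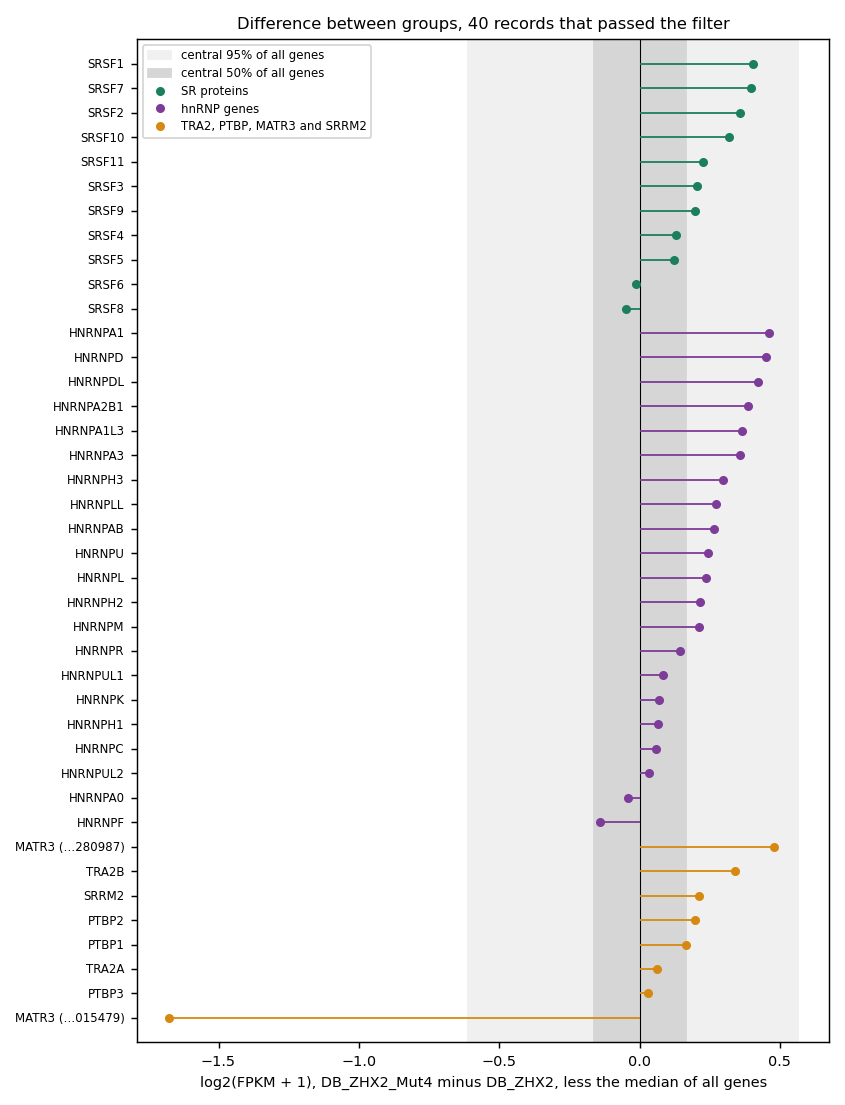
Difference in log2(FPKM + 1), DB_ZHX2_Mut4 minus DB_ZHX2, less the median of all genes, for the 40 records that passed the filter, ordered within class. Light and dark grey bands hold the central 95% and 50% of all genes, and 35 points lie to the right of 0 while the MATR3 record ENSG00000015479 lies at −1.68.

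Among the hnRNP genes, 19 of the 21 that passed were above the median gene, 13 lay in the top 25%, and the median difference was 0.24. HNRNPA1, a shuttling splicing silencer, was the most abundant of all members, at 292.4, 307.8 and 353.1 FPKM in Mut4 and 210.6, 280.8 and 189.0 FPKM in ZHX2 columns. Its columns did not overlap, and its difference was 0.46 (1.38-fold). HNRNPD, also called AUF1, which binds AU-rich elements and promotes decay of the mRNAs that carry them, was at 54.5, 57.4 and 65.8 FPKM against 39.4, 52.5 and 35.3 FPKM (0.45). HNRNPDL, its close relative, was at 85.0, 89.5 and 102.6 FPKM against 62.7, 83.6 and 56.3 FPKM (0.42). Neither gene's columns overlapped between the groups. Among the 40 members that passed the filter, the columns did not overlap for 5 that were higher in Mut4 cells (11% of all genes) and 1 that was lower (8.86%). As the columns are multiples of 1 profile, not overlapping means only that a ratio exceeds that of the constants.

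Paralogs within a family did not all have the same difference. In the A family, which binds UAG-like silencers, HNRNPA2B1 (0.39) and HNRNPA3 (0.36) were near HNRNPA1. HNRNPA0, an intronless relative, was at 15.1, 15.9 and 18.3 FPKM in Mut4 and 15.5, 20.6 and 13.9 FPKM in ZHX2 columns, with overlapping columns and a difference of −0.04. The third gene of the D group, HNRNPAB, had 0.26. Among the binders of G-rich runs, HNRNPH3 had 0.30, HNRNPH2 0.22 and HNRNPH1 0.06. HNRNPF of the same group had the lowest difference of the hnRNP genes, −0.14 (1.10-fold lower), at 91.9, 96.7 and 110.9 FPKM against 100.7, 134.3 and 90.4 FPKM. Its columns overlapped.

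HNRNPK, a binder of C-rich RNA and DNA and the second most abundant hnRNP gene, was at 127.6, 134.4 and 154.1 FPKM in Mut4 and 120.7, 160.9 and 108.3 FPKM in ZHX2 columns (0.07). HNRNPC, which binds uridine tracts and keeps cryptic Alu exons out of mRNA, had a difference of 0.06, with means of 115.7 FPKM (Mut4) and 109.3 FPKM (ZHX2). Both were thus close to the median gene despite their high level. In the U family of chromatin-associated proteins, HNRNPU had 0.25, HNRNPUL1 0.08 and HNRNPUL2 0.04. HNRNPUL2 was at 38.4, 40.4 and 46.3 FPKM against 37.2, 49.5 and 33.3 FPKM, with overlapping columns. It shares 43.6% of its annotated sequence words with the readthrough HNRNPUL2-BSCL2, listed at 6.78 and 4.94 FPKM, so its own value is uncertain.

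HNRNPL and HNRNPLL, the regulators of CD45 exons, had differences of 0.24 and 0.27. HNRNPL had means of 57.1 FPKM (Mut4) and 47.5 FPKM (ZHX2), and HNRNPLL, the lower of the pair, 6.15 and 4.82 FPKM. HNRNPM (0.21) and HNRNPR (0.14) complete the class, apart from copies of HNRNPA1. HNRNPA1L3 was at 12.0, 12.6 and 14.4 FPKM in Mut4 and 8.99, 12.0 and 8.07 FPKM in ZHX2 columns (0.37). HNRNPA1L2 did not pass the filter, with 0.881, 0.927 and 1.06 FPKM against 0.836, 1.11 and 0.750 FPKM. HNRNPA1L3 shares 58.4% and HNRNPA1L2 76.4% of their annotated sequence words with other records, so their own values are uncertain.

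Of the other factors, TRA2B, an SR-like activator that binds GAA-rich exonic enhancers, was at 23.5, 24.7 and 28.3 FPKM in Mut4 and 18.2, 24.3 and 16.4 FPKM in ZHX2 columns (0.34). The columns overlapped narrowly. Its paralog TRA2A had 18.7, 19.7 and 22.5 FPKM against 17.7, 23.6 and 15.9 FPKM (0.06). SRRM2, a large scaffold of nuclear speckles, was at 64.0, 67.3 and 77.2 FPKM against 54.7, 72.9 and 49.1 FPKM (0.21), with overlap. The polypyrimidine tract binders had differences of 0.17 for PTBP1, the widely expressed form, 0.20 for PTBP2, best known from neurons, and 0.03 for PTBP3, first described in blood cells. PTBP2 had means of 3.09 FPKM (Mut4) and 2.51 FPKM (ZHX2), and PTBP1 of 52.8 and 46.2 FPKM. PTBP3 had 18.3, 19.3 and 22.1 FPKM in Mut4 and 17.8, 23.7 and 16.0 FPKM in ZHX2 columns, which overlapped.

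MATR3 encodes matrin 3, an RNA- and DNA-binding protein of the nuclear matrix that represses exons beside its binding sites. It has 2 overlapping records on the plus strand of chromosome 5, and these went opposite ways. The record ENSG00000280987, at chr5:139273752-139331671 (GENCODE v29, GRCh38), was listed at 69.8, 73.4 and 84.2 FPKM in Mut4 and 49.4, 65.9 and 44.4 FPKM in ZHX2 columns. That is a difference of 0.48 (1.39-fold), with no overlap between the columns. The record ENSG00000015479, at chr5:139293648-139331677, was listed at 3.54, 3.73 and 4.28 FPKM in Mut4 and 13.2, 17.7 and 11.9 FPKM in ZHX2 columns. All of its Mut4 columns were below all of its ZHX2 columns, a difference of −1.68 (3.20-fold lower).

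The records share 5141 exonic bases, which is 80.9% of the exonic length of ENSG00000280987 and 42.5% of that of ENSG00000015479. Reads from that stretch fit either. Of its annotated sequence words, ENSG00000280987 shares 87.4% with other records, and 8.9967% with SNHG4, which is not a member. Whether reads of SNHG4 were listed under ENSG00000280987 was not tested, so the difference of that record may not be that of MATR3 alone. The sum of both records was 79.6 FPKM (Mut4) and 67.5 FPKM (ZHX2), a difference of 0.21 (1.16-fold), which equals the median of all members. The share listed under ENSG00000015479 was 4.83% of the sum in Mut4 cells and 21.1% in ZHX2 cells. FPKM are per length, and the records differ in length, so these are shares of listed level and not of reads. Whether transcripts starting at the downstream site were fewer, or reads were divided differently between the records, was not tested. With the records summed or left out, 0 members were 1.5-fold lower.

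**Figure D3:**
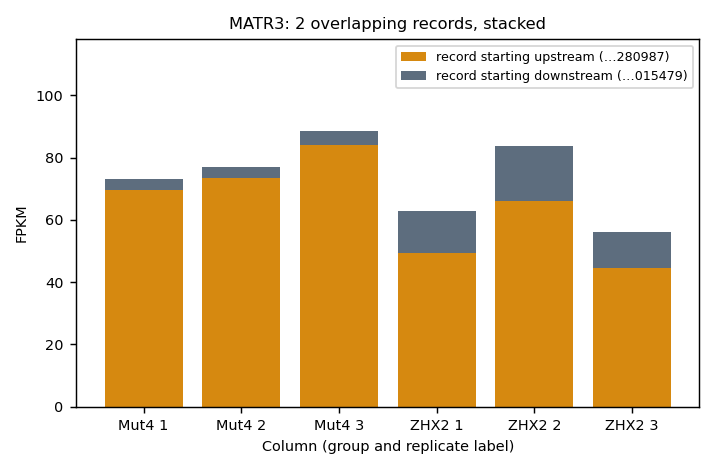
Listed FPKM of the 2 MATR3 records, stacked, in each of the 6 columns. The downstream-starting record (grey) is a thin cap of 4.83% in the Mut4 columns and 21.1% in the ZHX2 columns, while the summed bars differ less.

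RefSeq (GRCh38.p14) gives MATR3 a pair of start sites, and each lies near the first base of 1 of the records, which start 19896 bases apart. Both promoter windows are shown because the records differ in this start. Each runs from 250 bases before to 50 after the start, 5′ to 3′ on the gene's strand. Capitals mark the searched motifs on either strand: the CCAAT box (CCAAT), bound by NF-Y, the GC box (GGGCGG) and CTCGCGA, part of a palindromic promoter element. Both strands of the last overlap where the palindrome is whole.
MATR3 upstream start, chr5:139273851-139274150, plus strand: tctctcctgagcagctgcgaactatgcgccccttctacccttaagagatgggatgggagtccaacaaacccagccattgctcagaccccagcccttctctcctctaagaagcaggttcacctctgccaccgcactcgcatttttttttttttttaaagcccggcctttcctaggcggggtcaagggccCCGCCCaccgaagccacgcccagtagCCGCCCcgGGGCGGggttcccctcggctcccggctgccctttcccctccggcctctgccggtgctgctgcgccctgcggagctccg
MATR3 downstream start, chr5:139293490-139293789, plus strand: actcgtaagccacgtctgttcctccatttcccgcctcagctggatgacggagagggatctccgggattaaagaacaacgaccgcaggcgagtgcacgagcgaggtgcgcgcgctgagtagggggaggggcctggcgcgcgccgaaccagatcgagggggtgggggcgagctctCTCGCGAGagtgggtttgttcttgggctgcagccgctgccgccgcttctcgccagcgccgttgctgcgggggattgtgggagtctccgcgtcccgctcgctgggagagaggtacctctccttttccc
The upstream window held GC boxes and no CTCGCGA, and the downstream window CTCGCGA and no GC box. Neither held a CCAAT box, and a match or its lack describes these letters only.

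For comparison, the windows of HNRNPD and SRSF1, near the top of their classes by difference, and of HNRNPF, the lowest hnRNP gene, are given with the same marks. For HNRNPF, which has more than 1 start in the table, the upstream one is shown. HNRNPA1, HNRNPA1L3, SRSF2 and TRA2A had no entry.
HNRNPD, chr4:82373942-82374241, minus strand: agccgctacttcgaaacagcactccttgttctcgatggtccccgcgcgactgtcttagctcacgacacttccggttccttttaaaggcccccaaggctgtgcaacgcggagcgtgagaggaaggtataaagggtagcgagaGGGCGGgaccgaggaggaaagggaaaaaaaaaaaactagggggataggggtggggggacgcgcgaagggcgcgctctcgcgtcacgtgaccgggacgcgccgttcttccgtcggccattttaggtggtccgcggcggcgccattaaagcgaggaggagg
SRSF1, chr17:58007197-58007496, minus strand: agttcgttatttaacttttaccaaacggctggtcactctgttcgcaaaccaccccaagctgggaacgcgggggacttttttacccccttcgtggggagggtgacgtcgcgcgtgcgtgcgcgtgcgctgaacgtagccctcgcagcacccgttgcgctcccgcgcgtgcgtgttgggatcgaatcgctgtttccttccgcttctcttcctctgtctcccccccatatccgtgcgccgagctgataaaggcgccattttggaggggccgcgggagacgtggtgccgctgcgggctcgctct
HNRNPF, chr10:43408808-43409107, minus strand: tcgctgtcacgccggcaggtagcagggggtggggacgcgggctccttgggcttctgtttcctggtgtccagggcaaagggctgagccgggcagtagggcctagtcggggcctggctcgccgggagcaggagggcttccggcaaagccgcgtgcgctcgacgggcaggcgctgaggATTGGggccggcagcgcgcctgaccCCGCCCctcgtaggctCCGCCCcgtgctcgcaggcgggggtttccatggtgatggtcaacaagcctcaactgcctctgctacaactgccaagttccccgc
HNRNPF held a CCAAT box and GC boxes, HNRNPD a GC box and no CCAAT box, and SRSF1 none of the 3 motifs. Over all 53 windows of the 37 member symbols with an entry, 43.4% held a CCAAT box, against 34.6% of all 35116 windows in the table. A GC box was in 64.2% of members' windows and 45.0% of all windows. CTCGCGA was in 6 of the members' windows, those of HNRNPH3, HNRNPK, HNRNPUL1, MATR3, SRSF4 and SRSF10 (11.3%), and in 2.35% of all windows. The windows of all genes were not limited to genes that passed the filter, so they are not matched to the members in level. Windows of 1 gene can overlap, and HNRNPK, at 0.07, and SRSF10, at 0.32, both held CTCGCGA.

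Reads of several members may not be assigned with certainty, because their transcripts share sequence with other records. Of the 42 members, 15 share 10% or more of the 31-base words of their annotated transcripts, on either strand, with other genes, and 7 share under 1%. Matching on either strand also counts overlap between genes on opposite strands, which only counting by strand would separate. Such overlap was not told apart here from sequence shared with copies. HNRNPA1 shares 25.2%, mostly with the pseudogene HNRNPA1P10. HNRNPA1P7 was at 56.6, 59.5 and 68.3 FPKM in Mut4 and 41.9, 55.9 and 37.6 FPKM in ZHX2 columns, and HNRNPA1P10 at 25.6, 27.0 and 30.96 FPKM against 19.0, 25.4 and 17.1 FPKM. Their differences of 0.41 and 0.40 stood beside the 0.46 of HNRNPA1. Of the 6 other pseudogenes that passed the filter, HNRNPA1P16 had 0.33, HNRNPLP2 0.21 (HNRNPL 0.24) and HNRNPCP2 0.02 (HNRNPC 0.06). The rest lay further from their parent genes. HNRNPA3P6 had 0.66 where HNRNPA3 had 0.36, and HNRNPKP4 had −0.30 where HNRNPK had 0.07. HNRNPCP7 had −0.48 at 0.854 FPKM (Mut4) and 1.55 FPKM (ZHX2), so copy and parent did not always lie on the same side of the median gene. SRSF1 shares 56.9%, mostly with AC015813.2, SRSF9 46.6%, mostly with its neighbour GATC, and SRSF2 32.6%, mostly with the overlapping MFSD11. Of those under 1%, SRSF7, HNRNPLL and HNRNPA0 share 0%, with differences of 0.40, 0.27 and −0.04. HNRNPF shares 0.44%, PTBP3 0.46%, HNRNPDL 0.641% and TRA2B 0.95%, with differences of −0.14, 0.03, 0.42 and 0.34. Without the 15 members that share 10% or more, the medians were 0.17 for SR proteins and 0.18 for hnRNP genes, a setting chosen after seeing the data.

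Dropped records were looked at beside their partners. Of 54 such records, 51 were pseudogenes and 3 had hyphenated names, and 10 passed the filter. HNRNPK-AS1, antisense to HNRNPK, had means of 3.52 FPKM (Mut4) and 1.92 FPKM (ZHX2), a difference of 0.61, where HNRNPK had 0.07. The libraries were made with a dUTP-marked second strand, but no source used here says whether the counting used strand, so reads of the pair may not be separated.

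Transcripts annotated as targets of nonsense-mediated decay were counted, and poison exons were not searched for. In GENCODE v29, 28 of the 40 protein-coding members that passed the filter have at least 1 transcript of the nonsense-mediated decay type (70.0%), against 45.0% of the 10443 protein-coding genes that passed. All 11 SR genes that passed have one, as do 13 of 21 hnRNP genes, while PTBP2, PTBP3 and both MATR3 records have none. A retained-intron transcript is annotated for 67.5% of members and 58.8% of all these genes. Both shares can rise with the number of annotated transcripts, which was 1 for HNRNPA0 and 50 for HNRNPH1. The members were not matched to all these genes in that number or in level, so neither share is read as a trait of splicing factors. The deposited levels are per gene, so the share of productive and decay-prone transcripts was not analysed here.

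The members were expressed well above the typical gene. Their median level, as the mean of both groups, was 48.3 FPKM against 5.70 FPKM for all genes that passed, with a range from 2.80 FPKM (PTBP2) to 272.3 FPKM (HNRNPA1). Across the 40 members, which share libraries and include paralogs, Spearman's rho between level and difference was 0.33. Over all 12643 genes it was −0.04. With all genes filtered at 5 FPKM, the median of the 39 members left was 0.21, the same as with the usual filter. Of the 40 members this setting dropped only PTBP2, and the median of all genes before centring was 0.0231 against 0.0232. It could thus hardly move the value, and it did not match other genes to the members in level.

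**Figure D4:**
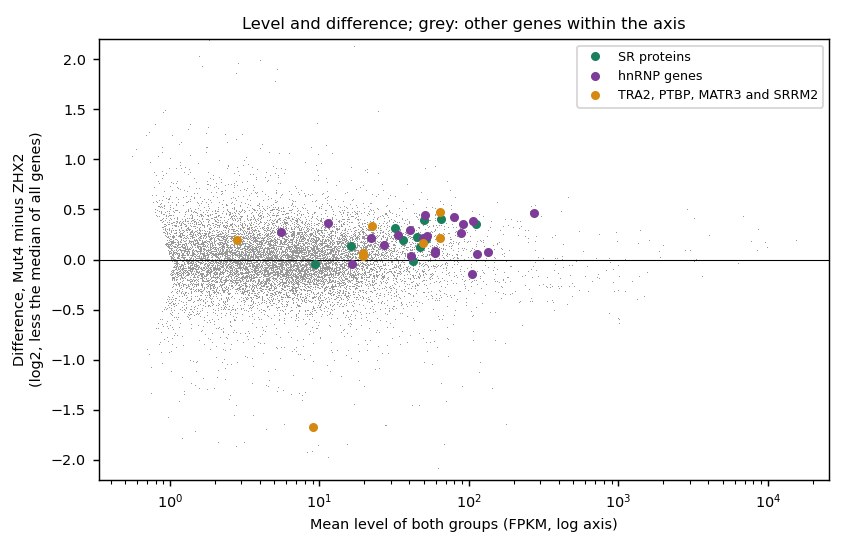
Mean level of both groups (FPKM, log axis) against the difference between groups (log2, Mut4 minus ZHX2, less the median of all genes) for all genes that passed the filter and lie within the axis (grey) and for the 40 members (coloured by class). The members lie on the right of the cloud and mostly above 0, with the MATR3 record ENSG00000015479 at −1.68 alone far below.

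Other genes of splicing gave smaller medians in most groups looked up. In 8 lists, 66 of 103 genes that passed were above the median gene, 0 were 1.5-fold apart and the median difference was 0.06. The Sm proteins, which form the ring of the spliceosomal snRNPs, were all above it, 7 of 7, with a median of 0.21. SNRPF was highest among them (0.48, 15.9 FPKM in Mut4 against 11.0 FPKM in ZHX2 cells), and SNRPB lowest (0.04). SR-related proteins and the SR importin TNPO3 had a median of 0.13, with 13 of 17 above. LUC7L3, a U1-associated factor, led them (0.40, 58.0 against 43.0 FPKM), and BCLAF1 was lowest (−0.07). The tri-snRNP proteins had a median of 0.12, with 9 of 12 above, led by the GTPase EFTUD2 (0.42), with SART1 lowest (−0.09).

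Kinases that phosphorylate SR proteins had a median of 0.08, with 5 of 8 above the median gene. CLK2 had 25.4 FPKM in Mut4 against 19.9 FPKM in ZHX2 cells (0.31), whereas CLK1 had 18.1 against 20.5 FPKM (−0.19). CLK2 thus lay in the top 25% of genes and CLK1 in the bottom 25%. Among hnRNP proteins known by other symbols the median was 0.11, with 5 of 6 above. RBMX, or hnRNP G, had 0.32, and PCBP1, or hnRNP E1, was at 161.7 and 186.8 FPKM (−0.23). Other regulators of splicing had a median of 0.07, with 12 of 20 above, from RBM39 (−0.35, 25.3 and 32.0 FPKM) to NONO (0.30, 65.9 and 52.6 FPKM).

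At the core of splice site recognition the median was −0.01, with 8 of 18 above the median gene. SNRPA, a protein of the U1 snRNP, had 69.2 against 49.6 FPKM (0.45) and the SF3B subunit SF3B4 45.5 against 58.2 FPKM (−0.37). For the exon junction complex and nonsense-mediated decay it was −0.0048, with 7 of 15 above, from UPF2 (−0.17) to SMG9 (0.35). None of these lists was tested against the members, so nothing is called particular to SR proteins and hnRNPs.

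**Figure D5:**
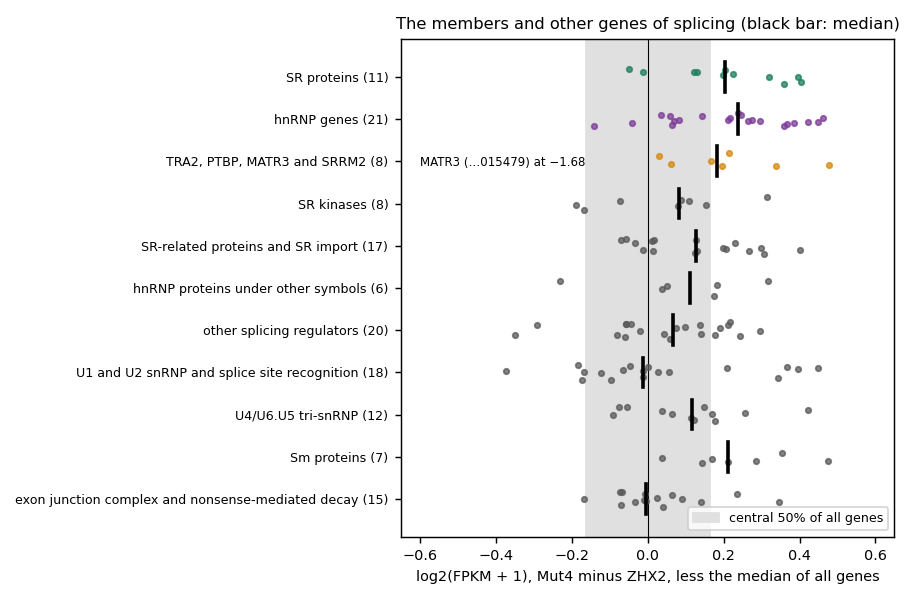
Difference between groups (log2, Mut4 minus ZHX2, less the median of all genes) for each gene that passed the filter in the 3 classes of members (coloured) and in 8 other lists of splicing genes (grey), with the number of genes in brackets and a black bar at each median. Medians run from −0.01 for splice site recognition to 0.24 for the hnRNP genes.

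In the authors' deposited table, 1 of the 42 members was marked significant, the MATR3 record ENSG00000015479, with a q of 1.59e-16, where 2.03% of all genes that passed the filter were marked. The same authors' deposited table gives p under 0.05 to 6 members (16.1% of all genes), 5 of them higher in Mut4 cells, where 7.76% of all genes had such a p and direction. The 5 were HNRNPA1, HNRNPD, HNRNPDL, SRSF1 and the MATR3 record ENSG00000280987, and their lowest q in the authors' deposited table was 0.157. No source used here says how those p-values came from columns that are 1 profile.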

How the data were processed

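Poly(A) RNA of DB cells was sequenced after TRIzol extraction, per the labels' protocols. GRCh38 and, as tools, fastp, HISAT2, StringTie and edgeR were used per the submitters' processing notes, with no version or setting. The deposited table holds FPKM per library, and for each gene a ratio on the linear and the log2 scale with p-value and q-value, per the file headers. The authors' ratio is DB_ZHX2 over DB_ZHX2_Mut4, the inverse of the direction used here. Their p-values and ratios only describe their table.

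In 15 gene symbols "up" had been replaced by "down". All 15 were restored by gene ID, UPF3A among them. Rows of ATG5, ACSL1 and SLC7A11 held values that contradicted one another and were left out. Because the columns of a group are constant multiples, limma was not run and each group's level is the mean of its 3 columns. A pseudocount of 1 FPKM was added, which understates the ratio of low genes. Ratios were centred on the median of all genes, because the zero point otherwise depends on which columns are averaged. Members at 1.5-fold or more, the 3 highest and 3 lowest ratios and the 2 highest levels per class, low members and overlapping records are given in every column; of each pathway list, members 1.5-fold apart or else the ends. Members and lists were chosen with earlier results of these data known. CTCGCGA was chosen after a longer form of that element had been searched. Sequence words of 31 bases came from GENCODE v29 transcripts. The steps were tested on simulated profiles. Python 3.11.15, numpy 2.4.6, pandas 2.3.3 and scipy 1.17.1 were used.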

Additional observations from a re-analysis of the deposited data

How the results depend on the processing

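No paired analysis was possible because each group is a single profile, so no test was run. Over 12 alternatives fixed with the design (a pseudocount of 0.1 FPKM, no filter or one at 5 FPKM, no centring, quantile normalization, replicate 1 only, and leaving out each column) and 3 added after seeing the data, the median of all members stayed between 0.18 and 0.24, that of SR proteins between 0.17 and 0.23, that of hnRNP genes between 0.18 and 0.27 and that of the other factors between 0.17 and 0.20. The count of members 1.5-fold higher was 0 throughout. The count 1.5-fold lower was 1, except 0 with both MATR3 records left out, with the records summed, and without members that share 10% or more of their sequence words, which removes both MATR3 records. Of 479 member values, 3 changed sign, all of SRSF6. The MATR3 record ENSG00000015479 alone moved by 0.1 or more, from −1.68 to −1.89 with a pseudocount of 0.1 FPKM, so its fold depends on the pseudocount. Leaving out ZHX2 replicate 2 moved the median of all genes to 0.17 before centring. With 1 profile per group and unknown depth, no difference here can be set against biological or counting error.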
